A study of Mus musculus with 16 samples.

Results

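The nuclear genes that encode the subunits of respiratory complex I were described in mouse embryonic stem cells with and without Nat1. Members were the rows of the deposited table whose symbol starts with Ndufa, Ndufb, Ndufc, Ndufs or Ndufv followed by a digit, together with Ndufab1, and without the Ndufaf assembly factors. A mean of at least 10 normalised reads was required over the 8 libraries of each assay. This gave 38 genes of the 21977 in the table, and 12933 genes in all reached that minimum. None of the 38 names fell short of it, and the lowest was Ndufa4l2. By their known place in the complex 7 are core catalytic subunits, 10 are accessory subunits of the matrix arm and 19 are accessory subunits of the membrane arm. The other 2 carry the name only: Ndufa4, which is now counted to complex IV, and its relative Ndufa4l2.

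From each of 8 cultures the study sequenced total RNA and ribosome-protected fragments (RPFs or footprints, the stretches of mRNA shielded by ribosomes at work). All were mouse embryonic stem cells kept with LIF, the cytokine that holds them undifferentiated, on gelatin. The groups were wild type (WT, 2 cultures, both of one line), Nat1+/- with 1 allele targeted (3 cultures, A7, B4 and C1) and Nat1-/- with no intact allele (3 cultures, B12, B2 and C3). The names of the targeted cultures read as separate clones, which the labels do not state, so p-values measure the spread between these cultures. Nat1 is the older name of Eif4g2 (DAP5, p97), which resembles the translation initiation factor eIF4G but has no binding site for eIF4E, the protein that holds the mRNA cap. Values are given as normalised reads in the order of the replicates.

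Complex I takes electrons from NADH, passes them along a chain of iron-sulphur clusters in its matrix arm to ubiquinone, and pumps protons through its membrane arm. Its catalytic core is shared with bacteria and is built from nuclear genes for the matrix arm and mitochondrial genes for the proton-pumping membrane subunits. The accessory subunits are all nuclear, surround the core and are mostly needed to assemble or hold it. Mouse embryonic stem cells respire as well as ferment glucose.

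Total RNA was read 13.2 to 42.6 M times per library (M, mega) and RPF 17.5 to 23.8 M times. The deep total RNA libraries were those of both WT cultures and Nat1-/- replicate 1. Footprints of the targeted gene Eif4g2 counted 17666 and 13862 (WT), 10261, 7608 and 7275 (Nat1+/-) and 1089, 1114 and 922 (Nat1-/-) and changed by -2.99 ± 0.17 (log2, SE) from Nat1+/- to Nat1-/- (limma, Benjamini-Hochberg adjusted p = 1.5e-05). All 10 embryonic stem cell markers, Pou5f1 and Nanog among them, were over 10 normalised reads in each genotype, in both assays. RPF medians lay close to 0 for all tested genes in every culture, since the authors scaled each assay separately. In bulk cultures, fewer cells of a type and less RNA per cell cannot be told apart. For 6 members (Ndufa11, Ndufa12, Ndufab1, Ndufb4, Ndufs5 and Ndufs6) RefSeq lists a named copy or pseudogene, and the sources used here do not say how reads shared with such copies were counted. Their values are therefore uncertain. Nor do they say whether strand was used, so reads of a member and of an overlapping antisense gene cannot be told apart.

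Promoters of respiratory genes are known for matches to the factors NRF1, the ETS family member GABP and YY1. RefSeq promoters (GRCm38.p6, 250 bases before to 50 after the start) were found for 33 of the 38 members. They are printed for Ndufb11 and Ndufb2, whose footprint increase in Nat1-/- over Nat1+/- was called under every setting run on them, for Ndufa6 and Ndufs5, 2 further members with more footprints, and for Ndufa13, whose RNA fell. Each line is the 120 bases before the start, 5′ to 3′ on the strand of the gene. Capitals mark a match on either strand to CCAAT, to the NRF1 core CGCATGC or to the paired NRF1 half-sites GCGCNNGCGC. The stretches are chrX:20617620-20617739 (minus strand), chr6:39592445-39592564 (plus strand), chr4:123718187-123718306 (minus strand), chr15:82354292-82354411 (minus strand) and chr8:69902021-69902140 (minus strand).
Ndufb11: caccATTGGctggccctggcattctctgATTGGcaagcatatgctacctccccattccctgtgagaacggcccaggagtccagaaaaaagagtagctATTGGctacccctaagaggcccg
Ndufb2: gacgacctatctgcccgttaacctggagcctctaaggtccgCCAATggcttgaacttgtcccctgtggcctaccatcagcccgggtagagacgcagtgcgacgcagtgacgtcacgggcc
Ndufs5: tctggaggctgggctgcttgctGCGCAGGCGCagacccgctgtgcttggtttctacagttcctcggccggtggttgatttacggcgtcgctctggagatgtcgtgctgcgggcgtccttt
Ndufa6: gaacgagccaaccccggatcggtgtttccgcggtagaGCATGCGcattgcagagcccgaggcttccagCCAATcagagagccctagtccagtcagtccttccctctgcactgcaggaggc
Ndufa13: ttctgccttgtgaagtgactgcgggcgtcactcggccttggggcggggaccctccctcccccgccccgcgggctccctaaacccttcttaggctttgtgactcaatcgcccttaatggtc
Both promoters shown for the members with the firmest call hold CCAAT, Ndufb11 in reverse at 3 places and Ndufb2 once. The stretch of Ndufs5 holds the paired half-sites, that of Ndufa6 the NRF1 core and CCAAT, and that of Ndufa13 no match. Over its whole window, however, Ndufa13 does hold CCAAT. The whole windows of Ndufa1, Ndufa3 and Ndufa4, also called higher in RPF of Nat1-/- over Nat1+/- and not printed, hold none of the motifs. Over the whole windows, CCAAT was found in 10 of 33 members (30.3%) against 43.1% of the 9876 tested genes with a promoter. The paired half-sites were found in 9 of 33 (27.3%) against 15.3%, the NRF1 core in 3 (9.09%) against 7.52%, the ETS core CCGGAAG in 4 (12.1%) against 19.8% and the YY1 core GATGGCG in 6 (18.2%) against 7.45%. Both strands were searched, and the NRF1 core and the paired half-sites can overlap. Among the 11 members with a promoter and a called footprint increase in Nat1-/- over Nat1+/-, 6 held CCAAT, 4 the paired half-sites, 1 the NRF1 core, 1 the YY1 core and 0 the ETS core. Among the 22 with a promoter and no call, 4 held CCAAT, 5 the paired half-sites, 2 the NRF1 core, 5 the YY1 core and 4 the ETS core. These counts are a description, and a match is not a bound site.

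The comparison of Nat1-/- with Nat1+/- sets clones without an intact allele against clones with 1. Footprints of 13 of the 38 members rose in Nat1-/- and those of 0 fell (limma on log2(value + 1), two-sided, Benjamini-Hochberg adjusted p under 0.05 over 13110 genes), where 17.6% of all tested genes rose and 18.6% fell. Among the 13 were Ndufa2, Ndufa5, Ndufa6 and Ndufs6 of the matrix arm, Ndufa1, Ndufa3, Ndufb2, Ndufb3, Ndufb11, Ndufc2 and Ndufs5 of the membrane arm, and Ndufa4. The fitted difference was above 0 for 35 members, with a median of 0.28 (log2) against 0.02 for all tested genes. The groups did not overlap, with Nat1-/- higher, for 18 members, as for 24.6% of all tested genes, and with Nat1-/- lower for 0, as for 23.5%. As a share of all RPF reads of a library, the 38 genes took 0.610%, 0.545% and 0.542% in Nat1-/-, 0.490%, 0.492% and 0.489% in Nat1+/- and 0.525% and 0.463% in WT.

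**Figure D1:**
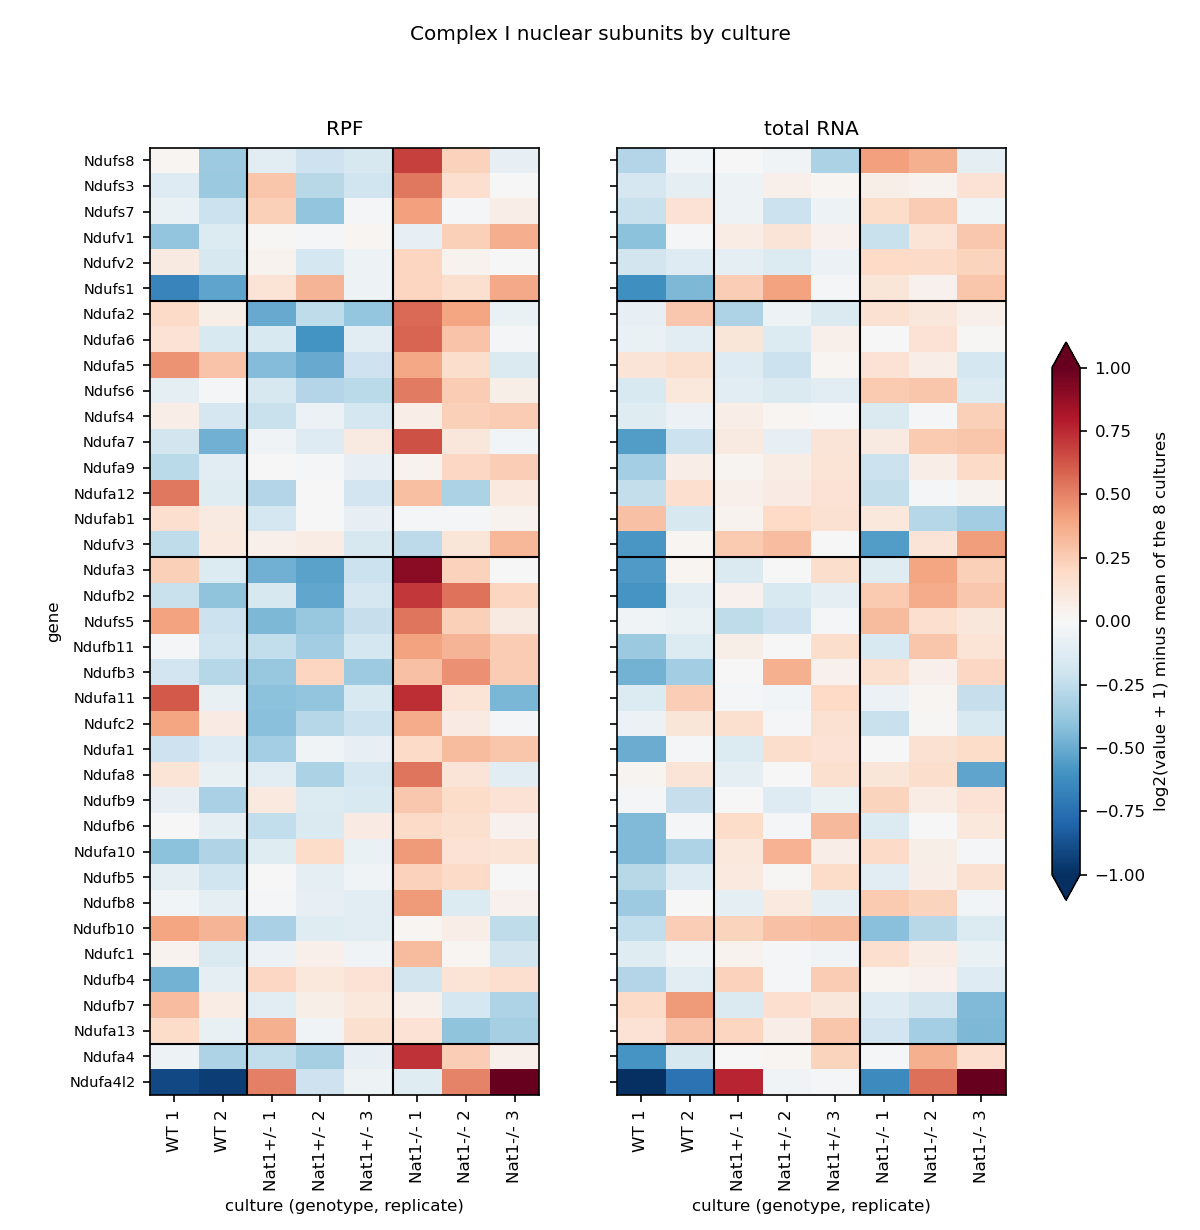
Heat map of log2(value + 1) of each member in each culture, less the mean of the 8 cultures, for RPF (left) and total RNA (right). Rows are 37 of the 38 genes, split by lines into core, matrix arm, membrane arm and name-only members and sorted within each by the RPF difference between Nat1-/- and Nat1+/-; columns are cultures; colours stop at -1 and 1. Red lies mostly in the Nat1-/- columns for RPF, strongest in replicate 1, and the total RNA panel shows WT replicate 1 as the bluest column.

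The increase was not of one size in the 3 Nat1-/- cultures. The median RPF deviation of the members from the mean of all cultures was 0.34, 0.17 and 0.05 (log2) in Nat1-/-, against -0.12, -0.14 and -0.11 in Nat1+/- and -0.02 and -0.14 in WT. Replicate 1 of Nat1-/- was the highest of all 8 cultures for 22 of the 38 genes. Replicates 1, 2 and 3 of Nat1-/- lay above all Nat1+/- cultures for 30, 26 and 25 members, as for 39.9%, 39.5% and 40% of all tested genes. They lay below all of them for 3, 4 and 4 members, as for 39.3%, 38.4% and 35.3% of all tested genes. The number of called members was 4, 5 and 6 without Nat1+/- replicate 1, 2 or 3, and 2 without Nat1-/- replicate 2. Among the calls lost without Nat1-/- replicate 1 were those of Ndufa4, Ndufa5, Ndufa6, Ndufb3, Ndufc2 and Ndufs5. Leaving out Nat1-/- replicate 3 ended none of the 13 calls. With every library set to the same sum 6 were called, all higher, and the 5 cultures whose total RNA libraries were shallow gave 8 calls, 7 of them higher. Summed stem cell markers were also higher in RPF, at 113851 to 133896 normalised reads in Nat1+/- and 187686 to 208668 in Nat1-/-. In total RNA these markers rose too, from 111480 to 131344 up to 200421 to 210848. The members did not, with a median total RNA difference of 0.01 (log2). Summed fibroblast markers (12 genes) went down in RPF, at 539 to 2188 and 188 to 209, with Lum and Dcn listed at 0 in all Nat1-/- RPF libraries. The part of these markers in the result was not tested.

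Among the membrane arm accessory subunits 7 of 19 rose in RPF. Ndufb11, the X-linked ESSS subunit, had RPF values of 1982 and 1749 (WT), 1693, 1583 and 1779 (Nat1+/-) and 2664, 2547 and 2405 (Nat1-/-). All 3 Nat1-/- cultures stood above the other 5. The rise over Nat1+/- was 1.51-fold, from 1685 ± 98.5 (SD, n = 3) to 2538 ± 129.6 (SD, n = 3) (log2 fold change 0.59 ± 0.12 SE; limma adjusted p = 0.0049). Its total RNA, 796 and 942 (WT), 1078, 1038 and 1167 (Nat1+/-) and 930.5, 1249.5 and 1138 (Nat1-/-), overlapped between the same groups and gave a log2 difference of 0.01 ± 0.15 (adjusted p = 0.98, limma). Ndufb2, a small subunit at the far end of the membrane arm, had 1081 and 956 (WT), 1128, 881 and 1119.9 (Nat1+/-) and 2055, 1836 and 1465 (Nat1-/-) RPF reads. Again the Nat1-/- cultures did not overlap with the others, and the rise over Nat1+/- was 1.71-fold (log2 0.77 ± 0.16; limma adjusted p = 0.0063). Here total RNA also lay apart, at 787, 688 and 718 in Nat1+/- and 916, 987 and 919.9 in Nat1-/-, with a log2 difference of 0.37 ± 0.15 that was not called (limma adjusted p = 0.082). Ndufb11 and Ndufb2 were the only members whose RPF call held under all 19 alternative settings run on them.

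**Figure D2:**
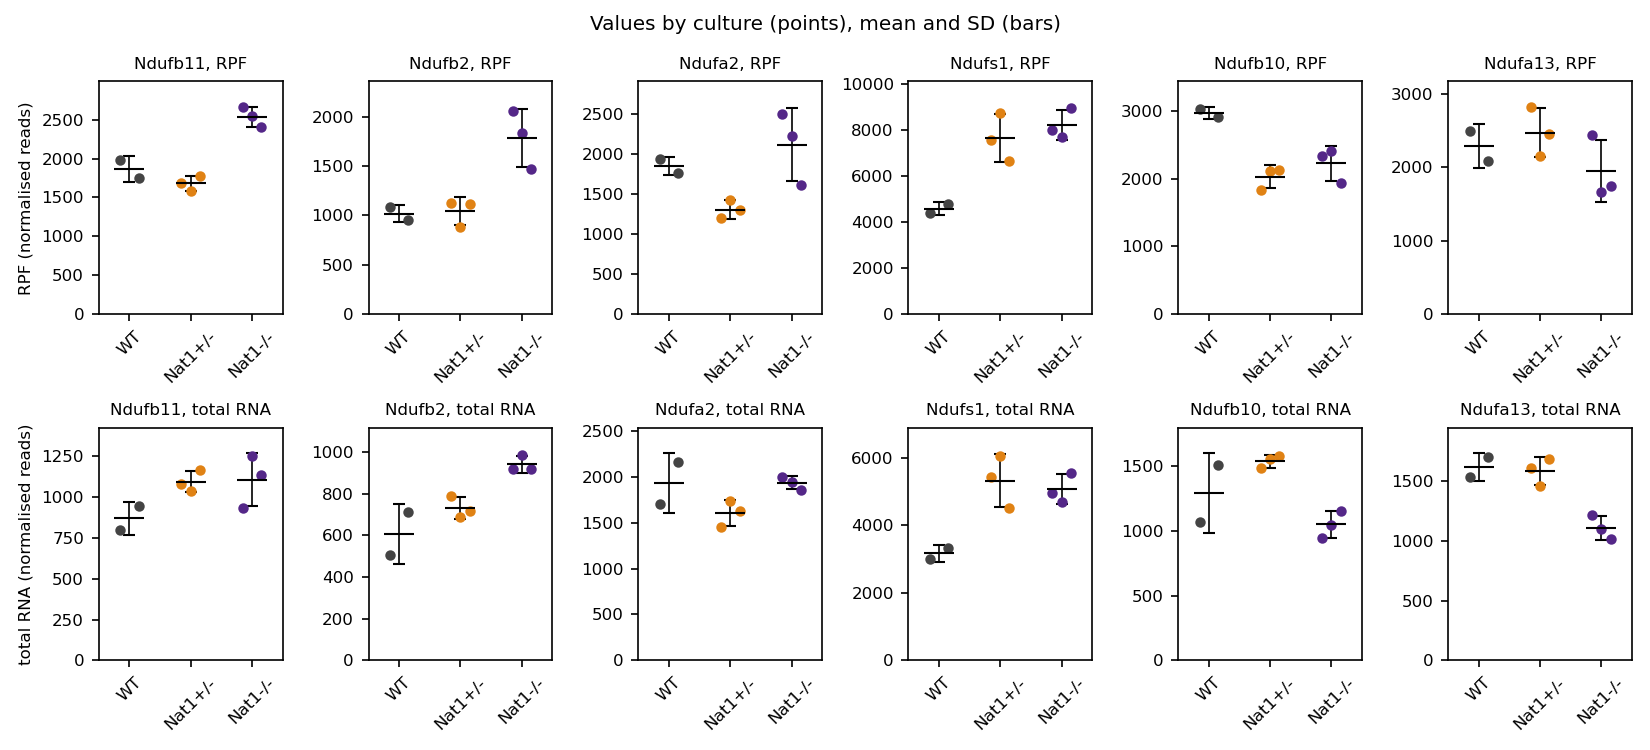
Normalised reads of 6 members in each culture, RPF above and total RNA below; points are cultures, the bar is the genotype mean and whiskers are the SD (n = 2, 3 and 3), and each axis starts at 0 with its own scale. Footprints of Ndufb11 and Ndufb2 are apart in Nat1-/-, and both assays of Ndufs1 are low in WT. Total RNA of Ndufb10 and Ndufa13 is lower in Nat1-/- than in Nat1+/-, without a matching drop in footprints of Ndufb10 between these groups. Against WT, footprints of Ndufb10 are lower in Nat1-/-, while its total RNA overlaps.

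Other membrane arm members rose with a wider spread. Ndufa3 had RPF values of 1348 and 1039 (WT), 819.7, 788 and 982 (Nat1+/-) and 2136, 1341 and 1138 (Nat1-/-), so that Nat1-/- lay above Nat1+/- in every culture while WT replicate 1 lay within the Nat1-/- range (log2 0.79 ± 0.23 against Nat1+/-; limma adjusted p = 0.023). Ndufs5, a subunit facing the intermembrane space, had 1102 and 716 (WT), 609, 641 and 709.5 (Nat1+/-) and 1210.3, 984 and 887 (Nat1-/-) and likewise did not overlap between Nat1-/- and Nat1+/- (log2 0.64 ± 0.19; limma adjusted p = 0.024). Ndufa1, the X-linked MWFE subunit needed for assembly, was tight, at 2094 and 2217 (WT), 1914, 2363 and 2285 (Nat1+/-) and 2758, 3019 and 2938 (Nat1-/-). Its Nat1-/- cultures stood above the other 5 (log2 0.41 ± 0.13; limma adjusted p = 0.029). Ndufc2 had 3281 and 2644 (WT), 1876, 2056 and 2159 (Nat1+/-) and 3229, 2642 and 2480.0 (Nat1-/-), where WT and Nat1-/- shared a range and Nat1+/- lay below both (log2 0.45 ± 0.15 for Nat1-/- against Nat1+/-; limma adjusted p = 0.038). Ndufb3 was called at 0.51 (log2). Each of these 5 calls was lost when at least 3 of the 6 targeted cultures were left out in turn, Nat1-/- replicate 2 always among them.

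Of the 12 membrane arm members without a call, 3 had a fitted RPF difference below 0: Ndufa13 (-0.36 ± 0.18, log2), Ndufb7 (-0.16 ± 0.14) and Ndufb4 (-0.11 ± 0.15). The other 9 ran from 0.06 for Ndufc1 to 0.46 for Ndufa11. Ndufa11 was the least even, at 2868, 1889.9 and 1252 in Nat1-/- against 1289, 1305 and 1539.8 in Nat1+/-, with replicate 3 of Nat1-/- below every other culture.

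In the matrix arm 4 of 10 accessory subunits rose in RPF, and all 10 fitted differences were above 0, with a median of 0.30 (log2). Ndufa2, a thioredoxin-fold subunit of the NADH-oxidising module, had RPF values of 1937 and 1771 (WT), 1199, 1428 and 1297 (Nat1+/-) and 2510.3, 2235 and 1618 (Nat1-/-). Nat1+/- was below every WT and Nat1-/- culture (log2 0.68 ± 0.17 for Nat1-/- against Nat1+/-; limma adjusted p = 0.013), and the call was lost only without Nat1-/- replicate 2. Ndufs6, a zinc-binding subunit beside that module, had 2469.6 and 2625 (WT), 2369, 2161 and 2203 (Nat1+/-) and 3805, 3154 and 2766 (Nat1-/-) (log2 0.52 ± 0.14; limma adjusted p = 0.017). Its Nat1-/- cultures stood above all 5 others. Ndufa5, at the quinone-binding module, had 2173 and 1939 (WT), 1179, 1123 and 1375 (Nat1+/-) and 2076, 1797 and 1436 (Nat1-/-), with Nat1+/- below both other groups (log2 0.52 ± 0.16; limma adjusted p = 0.03). Ndufa6, an LYR protein that binds the acyl carrier protein, was called at 0.57 (log2; limma adjusted p = 0.042). Leaving out 1 of 3 or more targeted cultures ended the calls of Ndufs6, Ndufa5 and Ndufa6. Ndufab1, the mitochondrial acyl carrier protein, read 0.09 ± 0.11 and Ndufs4, whose loss in mice causes a Leigh-like disease, read 0.34 ± 0.13 (log2), neither called.

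In the catalytic core all 7 fitted RPF differences were above 0, with a median of 0.21 (log2). The difference between the classes was not tested. Ndufs8, which holds iron-sulphur clusters next to the quinone site, had RPF values of 1839 and 1405 (WT), 1673, 1566 and 1619.5 (Nat1+/-) and 2908, 2123 and 1712 (Nat1-/-). Nat1-/- and Nat1+/- did not overlap, but the fitted 0.44 ± 0.19 (log2) was not called (limma adjusted p = 0.1). Ndufs7, beside the quinone pocket, had 2013 and 1814 (WT), 2486, 1606 and 2084 (Nat1+/-) and 2804, 2080.0 and 2211 (Nat1-/-) and overlapped between the groups (log2 0.21 ± 0.18).

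Ndufs3 of the quinone module had 1004 and 849 (WT), 1333, 909 and 958 (Nat1+/-) and 1581, 1237 and 1102 (Nat1-/-) RPF reads, with Nat1+/- replicate 1 inside the Nat1-/- range (log2 0.30 ± 0.19). Ndufv1, which carries the flavin and the NADH site, had 4545 and 5419.9 (WT), 6001, 5881 and 6045 (Nat1+/-) and 5624, 7014 and 7673 (Nat1-/-). Here replicate 1 of Nat1-/- was below all Nat1+/- cultures and replicates 2 and 3 above them (log2 0.17 ± 0.15). Ndufv2, its iron-sulphur partner, had 4564 and 3847 (WT), 4407, 3799 and 4150.1 (Nat1+/-) and 4998, 4413 and 4309 (Nat1-/-), with overlapping groups (log2 0.15 ± 0.13). Ndufs1, the largest subunit of the NADH module, had 4369.7 and 4788 (WT), 7585, 8745 and 6643 (Nat1+/-) and 7993, 7704 and 8961 (Nat1-/-) and differed by 0.11 ± 0.14 (log2) between Nat1-/- and Nat1+/-, its 6 targeted cultures all above WT. None of these 4 was called between Nat1-/- and Nat1+/- (limma adjusted p 0.25, 0.39, 0.39 and 0.57).

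Of the name-only members, Ndufa4 had RPF values of 4989 and 4170.0 (WT), 4338, 4098 and 4881 (Nat1+/-) and 8507, 6128 and 5334 (Nat1-/-), with Nat1-/- above the other 5 cultures (log2 0.56 ± 0.18 against Nat1+/-; limma adjusted p = 0.035). That call was lost without any one of 5 targeted cultures, all but Nat1-/- replicate 3. Ndufa4l2, a gene known to be induced in low oxygen, had 238 and 232 (WT), 634, 388 and 432 (Nat1+/-) and 412, 631 and 1053 (Nat1-/-) and was not called (log2 0.45 ± 0.31).

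Fewer members were called in total RNA between Nat1-/- and Nat1+/-. Ndufv2 rose and Ndufa13 and Ndufb10 fell, 3 calls of 38, where 19.8% of all tested genes rose and 20.2% fell. The median difference was 0.01 (log2), the same as over all genes tested. Ndufa13 (GRIM-19), a membrane-spanning subunit at the junction of the arms, had total RNA values of 1534 and 1696 (WT), 1609.9, 1454 and 1687 (Nat1+/-) and 1217, 1095 and 1015 (Nat1-/-). Nat1-/- lay below the other 5 cultures, 1.43-fold under Nat1+/- (log2 -0.51 ± 0.13; limma adjusted p = 0.01), and the call held under all 19 alternatives. Its footprints, 2814, 2148 and 2449.8 in Nat1+/- and 2431, 1661 and 1741 in Nat1-/-, overlapped (log2 -0.36 ± 0.18).

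Ndufb10, a disulphide-bonded subunit facing the intermembrane space, had total RNA of 1072 and 1509 (WT), 1484, 1553 and 1581 (Nat1+/-) and 949, 1049.7 and 1152 (Nat1-/-). Nat1-/- was below Nat1+/- in every culture (log2 -0.56 ± 0.15; limma adjusted p = 0.016), and the call needed Nat1+/- replicate 3 and Nat1-/- replicate 2. Its footprints went the other way in the fit, at 3038 and 2913 (WT), 1838, 2121 and 2134 (Nat1+/-) and 2335, 2416 and 1933 (Nat1-/-) (log2 0.13 ± 0.13, not called). Ndufv2 rose by a small and even step, from 2707, 2639 and 2779 in Nat1+/- to 3322, 3305 and 3393 in Nat1-/- (log2 0.30 ± 0.10; limma adjusted p = 0.041). Leaving out any targeted culture but Nat1-/- replicate 3 ended that call. The number of called members was 1 without Nat1+/- replicate 3 or Nat1-/- replicate 2 and 5 without Nat1-/- replicate 3.

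**Figure D3:**
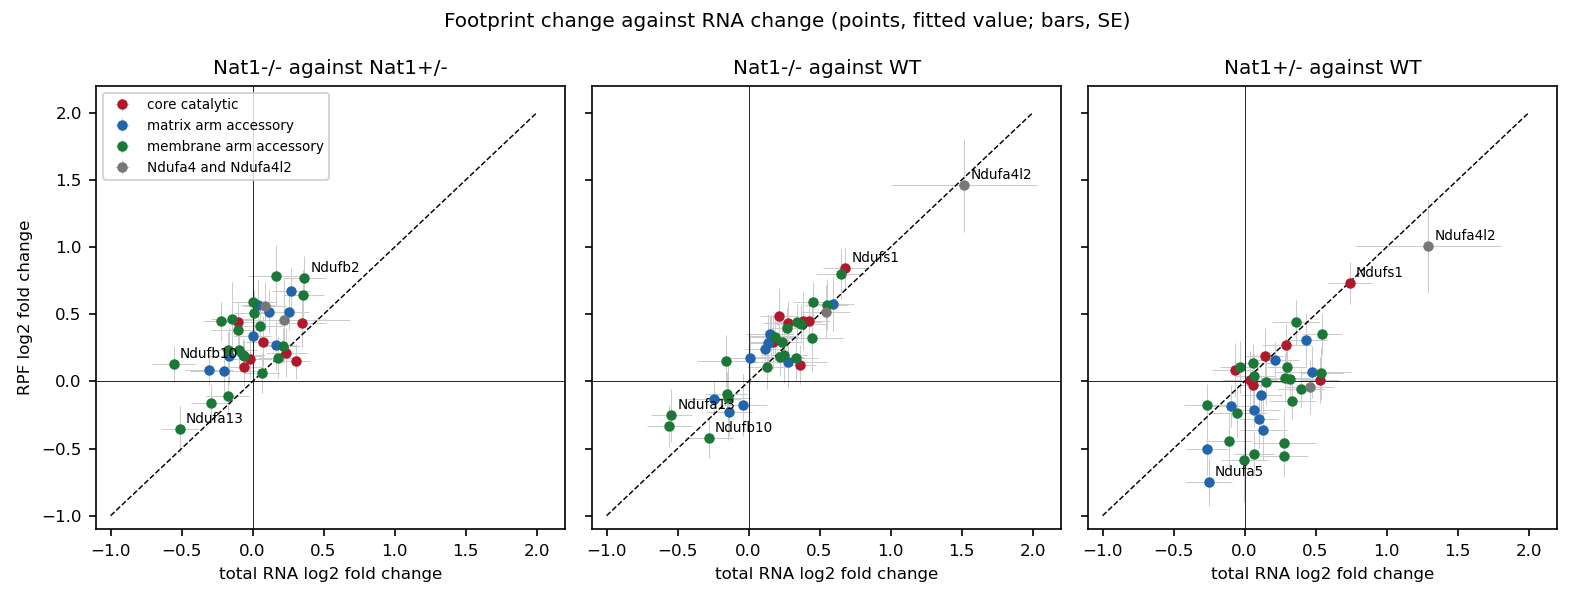
RPF log2 fold change (vertical) against total RNA log2 fold change (horizontal) of the 38 members in the 3 comparisons; points are fitted values coloured by class, bars are SE, and the dashed line marks equal change. For Nat1-/- against Nat1+/- 35 of 38 points lie above the line, for Nat1-/- against WT 25, and for Nat1+/- against WT 6.

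Translational efficiency (TE) is taken here as RPF relative to total RNA of the same genotype. Between Nat1-/- and Nat1+/- its fitted difference was above 0 for 35 of 38 members, with a median of 0.31 (log2) against 0.01 for all 12933 genes tested. The groups did not overlap, with Nat1-/- higher, for 23 members, as for 18.5% of all genes, and lower for 0, as for 18.4%. In the interaction test without a culture term limma called 0 members, and 0.0309% of all genes were called higher and 0.549% lower. At an unadjusted p under 0.05 there were 7 members (10.5% of all genes). DESeq2 called 3 members, all higher, where it called 1.24% of all genes with an adjusted p higher and 3.1% lower. The RPF and total RNA libraries of a culture are paired, and in the fit with a culture term 10 members rose and 0 fell, where 6.49% of all genes rose and 9.26% fell. Among the 10 were Ndufa5 and Ndufa6 of the matrix arm, and Ndufa1, Ndufa8, Ndufa10, Ndufb3, Ndufb10, Ndufb11 and Ndufc2 of the membrane arm.

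The log2 ratio of RPF to total RNA of Ndufb10 was 1.50 and 0.95 (WT), 0.31, 0.45 and 0.43 (Nat1+/-) and 1.30, 1.20 and 0.75 (Nat1-/-). Nat1+/- lay below both other genotypes in every culture, and Nat1-/- was higher by 0.69 ± 0.16 (log2, SE) with the culture term (limma adjusted p = 0.018, against 0.15 without it). For Ndufc2 the ratio was 1.46 and 0.97 (WT), 0.43, 0.75 and 0.64 (Nat1+/-) and 1.60, 1.08 and 1.15 (Nat1-/-), again lowest in Nat1+/- (log2 0.67 ± 0.16; limma adjusted p = 0.02 with the culture term and 0.13 without it). For Ndufb11 it was 1.31 and 0.89 (WT), 0.65, 0.61 and 0.61 (Nat1+/-) and 1.52, 1.03 and 1.08 (Nat1-/-) (log2 0.59 ± 0.14; limma adjusted p = 0.021 with the culture term and 0.18 without it). Here the second WT culture fell between the targeted groups. Ndufb10 differed from the other 2 in that its TE difference came with less RNA in Nat1-/- and footprints that were not called.

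The median TE deviation of the members was 0.28, 0.09 and 0.02 (log2) in the Nat1-/- cultures, -0.20, -0.17 and -0.19 in Nat1+/- and 0.28 and -0.11 in WT. Total RNA depth was 42.5, 16.4 and 14.2 M reads in the same Nat1-/- cultures, 13.2, 14.6 and 14.8 M in Nat1+/- and 42.6 and 33.6 M in WT. The median was thus high in the 2 deepest libraries, low in the deep WT replicate 2 and in the shallow Nat1+/- libraries, and between these in the shallow Nat1-/- replicates 2 and 3. The part of depth in these values was not tested. Among members the RPF and total RNA differences between Nat1-/- and Nat1+/- correlated at Pearson r = 0.617 and Spearman rho = 0.548 (n = 38 genes of the same cultures, a description), against a Pearson r of 0.908 over all 12933 genes.

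**Figure D4:**
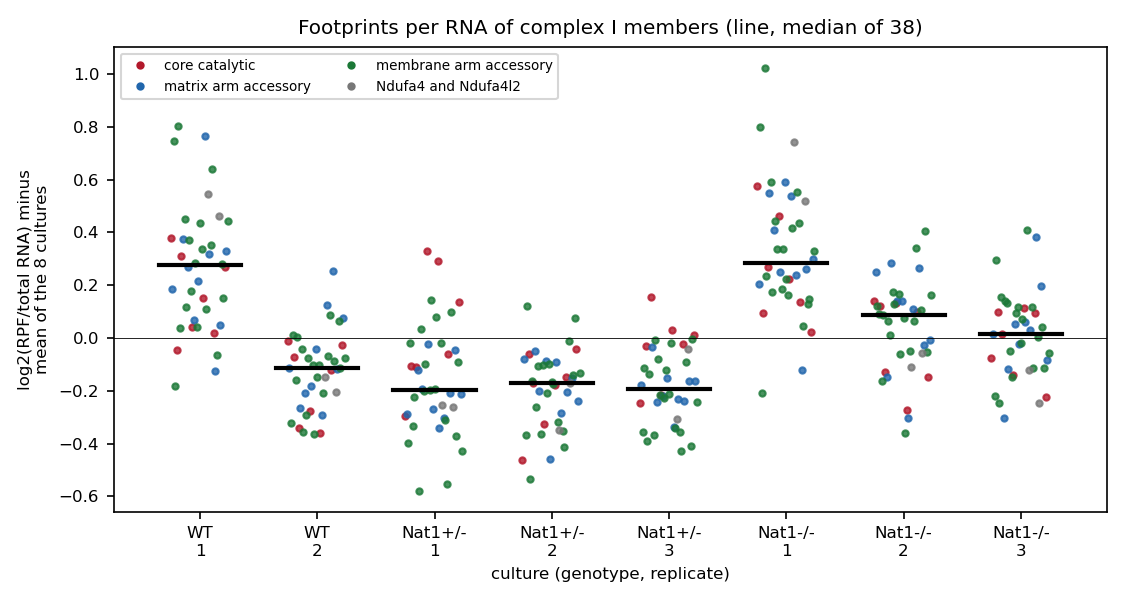
Log2 ratio of RPF to total RNA of each member in each culture, less the mean of the 8 cultures; points are the 38 genes coloured by class and the line is their median. Medians lie between -0.20 and -0.17 in Nat1+/-, between 0.02 and 0.28 in Nat1-/- and apart in the 2 WT cultures, at 0.28 and -0.11.

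Against WT, footprints of 7 members rose and those of 1 fell in Nat1-/-, where 16.5% of all tested genes rose and 18.3% fell. The 7 were Ndufs1, Ndufb2, Ndufa4l2, Ndufa10, Ndufb11, Ndufb3 and Ndufa1, and the member that fell was Ndufb10. Ndufb10 lay at the threshold (log2 -0.42; limma adjusted p = 0.0498). Its call was lost with no minimum, a minimum mean of 50, a pseudocount of 0.5 or a robust eBayes. The calls of Ndufa1, Ndufb11 and Ndufb3 were lost with equal library sums. The median difference of the members was 0.29 (log2), against 0.03 for all tested genes. Both targeted groups are compared with the same 2 WT cultures, so these comparisons share their controls. Summed fibroblast markers were 9484 to 16270 normalised RPF reads in WT, over 10 reads for 11 of the 12 genes, against 188 to 209 in Nat1-/-. Summed neuroectoderm markers (6 genes) were 7403 to 8318 in WT, 1997 to 3617 in Nat1+/- and 1091 to 1800 in Nat1-/-. These genes did not move together. Of the 5 tested in RPF of Nat1-/- against WT, 4 fell and 1, Sox1, rose (3.23 ± 0.45, log2, SE; limma adjusted p = 0.00071). Of 5 tested primitive endoderm markers 2 rose and 2 fell in the same comparison. The part of other cells in the comparisons with WT was not tested.

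Ndufs1 was the member with the smallest p against WT, at 4579 ± 296 (SD, n = 2) RPF reads in WT and 8219 ± 658 (SD, n = 3) in Nat1-/- (log2 0.84 ± 0.16; limma adjusted p = 0.003). The call held under all 17 alternatives. In Nat1+/- the same subunit stood at 7658 ± 1053 (SD, n = 3) and was called as well (log2 0.73 ± 0.16; limma adjusted p = 0.026). Its total RNA had the same shape, with 2997 and 3343 (WT), 5424, 6050.4 and 4504 (Nat1+/-) and 4972, 4706 and 5555 (Nat1-/-), and rose by 0.68 ± 0.15 and 0.74 ± 0.15 (log2) over WT (limma adjusted p = 0.0071 and 0.021). Thus Ndufs1 was low in both WT cultures in both assays, with the 6 targeted cultures above them. Both Nat1+/- calls were lost when WT replicate 1, WT replicate 2 or Nat1+/- replicate 1 was left out, and the total RNA call in Nat1-/- without WT replicate 1.

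Ndufa10, an accessory subunit with a nucleoside kinase fold, had RPF values of 3037 and 3269.6 (WT), 3711, 4566 and 3846 (Nat1+/-) and 5414, 4441 and 4433 (Nat1-/-). Both WT cultures were below the rest, as they were in total RNA, at 1939 and 2133 (WT), 2836, 3345 and 2766 (Nat1+/-) and 3008, 2739 and 2606 (Nat1-/-). It rose over WT in RPF of Nat1-/- (0.59 ± 0.15, log2; limma adjusted p = 0.015) and in total RNA of Nat1-/- (0.45) and Nat1+/- (0.55). Ndufa4l2 rose by 1.46 ± 0.35 (log2) in RPF of Nat1-/- (limma adjusted p = 0.01), and its total RNA of 77.8 and 121 (WT), 345, 197 and 201 (Nat1+/-) and 129.9, 297 and 565 (Nat1-/-) had a wide spread in Nat1-/-, replicate 1 lying near WT. For Ndufb2 the RPF rise over WT was 0.80 ± 0.18 (log2; limma adjusted p = 0.0086). Each of these 3 RPF calls was lost without 1 WT culture, replicate 2 for Ndufb2 and either replicate for the other 2. The RPF count of 8 called members fell to 2 without WT replicate 1, 1 without WT replicate 2 and 4 without Nat1-/- replicate 2, was 5 with equal library sums or with only these 2 genotypes in the fit, and was 13 with DESeq2, which called 38.4% of all genes.

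In total RNA 9 members rose and 2 fell in Nat1-/- against WT, where 16.2% of all tested genes rose and 18.9% fell. Among those that rose were Ndufs1, Ndufv2, Ndufa7, Ndufa10, Ndufb2, Ndufb3, Ndufa4 and Ndufa4l2, and those that fell were Ndufa13 (-0.54 ± 0.14, log2) and Ndufb7 (-0.56 ± 0.16). Ndufa7, a matrix arm subunit, had total RNA of 2177 and 2764 (WT), 3408, 3032 and 3505 (Nat1+/-) and 3417, 3847 and 3893 (Nat1-/-), with WT lowest (log2 0.60 ± 0.15; limma adjusted p = 0.01). WT replicate 1 was the lowest of the 8 cultures in total RNA for 23 of 38 members, and without it 0 of the 11 calls was left. The count was 5 without WT replicate 2, without Nat1-/- replicate 2 and among the 3 cultures with deep libraries, and 6 with only these 2 genotypes in the fit. Equal library sums gave 3 higher and 2 lower, and moved the median of all genes from 0.02 to -0.10 (log2) in this comparison.

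Between Nat1+/- and WT, Ndufs1 rose in RPF and Ndufa5 (-0.75 ± 0.18, log2; limma adjusted p = 0.033) and Ndufb10 (-0.55 ± 0.15; adjusted p = 0.045) fell, where 5.35% of all tested genes rose and 5.13% fell. Total RNA of 3 members, Ndufs1 and Ndufa10 among them, rose and that of 0 members fell, where 4.60% and 5.41% of all genes did. Both counts of 3 fell to 0 without WT replicate 1 or 2 or Nat1+/- replicate 1, and to 1 without Nat1+/- replicate 2 or 3.

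TE of the members against WT gave 0 calls in either targeted genotype with limma, also with the culture term, under which 0.232% of all genes were called higher and 0.99% lower in Nat1-/- and 0.696% and 0.433% in Nat1+/-. At an unadjusted p under 0.05 there were 0 members in Nat1-/- (2.54% of all genes) and 6 in Nat1+/- (5.13% of all genes), and DESeq2 called 0 in both, against 0.416% and 0.194% of all genes with an adjusted p. Without that term 0.00773% of all genes were called lower and 0% higher in Nat1-/-, and 0% either way in Nat1+/-. The median TE difference was 0.06 (log2) for Nat1-/- and -0.23 for Nat1+/-, against 0.03 and 0.02 for all genes. Nat1+/- lay below both WT cultures for 17 members and above for 0, where 19.3% and 24.5% of all genes did. The WT cultures disagreed: without replicate 1 the medians were 0.27 and -0.02, without replicate 2 they were -0.13 and -0.41. By p, Ndufv2 (-0.24 ± 0.16, log2) and Ndufa13 (0.29 ± 0.24) led in Nat1-/- and Ndufb10 (-0.83 ± 0.22) and Ndufc2 (-0.61 ± 0.21) in Nat1+/-. The log2 ratio of Ndufv2 was 0.84 and 0.54 (WT), 0.70, 0.53 and 0.58 (Nat1+/-) and 0.59, 0.42 and 0.34 (Nat1-/-) and that of Ndufa13 0.70 and 0.29 (WT), 0.81, 0.56 and 0.54 (Nat1+/-) and 1.00, 0.60 and 0.78 (Nat1-/-), and for both genes Nat1-/- and WT overlapped.

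The nuclear subunits of complexes II to V, the rest of the respiratory chain and ATP synthase, showed a like footprint shift between Nat1-/- and Nat1+/-. Of 38 tested 15 rose and 1, Sdhc, fell, where 17.6% of all tested genes rose and 18.6% fell. The median of the 38 was 0.40 (log2), against 0.02 for all tested genes. Cox6c (0.65 ± 0.12) and Cox6b1 (0.57 ± 0.14) of complex IV and Atp5g3 (0.66 ± 0.14) of ATP synthase had the smallest adjusted p among the 38 (limma adjusted p = 0.0037, 0.012 and 0.0059). The TE differences of the 38 had a median of 0.31 (log2), against 0.01 for all genes tested. The groups did not overlap in TE, with Nat1-/- higher, for 22 of 38, as for 18.5% of all genes, and lower for 0, as for 18.4%. Complex I was thus not shown to differ from the other complexes in either measure, and the difference was not tested.

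Assembly factors, which build complex I but are not part of it, went both ways. In RPF 3 of 15 rose, Ndufaf2 (0.72 ± 0.19), Acad9 (0.53 ± 0.15) and Ecsit (0.54 ± 0.16), and Ndufaf3 (-0.65 ± 0.16) and Ndufaf6 (-0.44 ± 0.14) fell (log2, SE), with a median of 0.11. Of all tested genes 17.6% rose and 18.6% fell in RPF between Nat1-/- and Nat1+/-, with a median of 0.02. In total RNA 0 of 15 factors rose, and Ndufaf3 (-0.85 ± 0.20), Nubpl (-0.72 ± 0.19) and Ndufaf6 (-0.46 ± 0.15) fell, where 19.8% of all tested genes rose and 20.2% fell. Of the mitochondrial genes for the core membrane subunits, 5 were tested in RPF, mt-Nd1, mt-Nd2, mt-Nd4, mt-Nd5 and mt-Nd6, and 0 were called between Nat1-/- and Nat1+/- (limma, 0 at an unadjusted p under 0.05), the SEs being 0.38 to 0.61 (log2). mt-Nd4l is listed at 0 in every library. Against WT the fitted RPF differences of all 5 were below 0, at -1.36 to -0.94 (log2) in Nat1-/- and -1.59 to -1.06 in Nat1+/-. Of these only mt-Nd6 in Nat1-/- was called (-1.36 ± 0.43; limma adjusted p = 0.033), where 18.3% of all tested genes fell. In total RNA 5 of 6 tested were also below 0 against WT in each targeted genotype. The medians were -0.60 (Nat1-/-) and -1.60 (Nat1+/-), and 0 were called, where 18.9% and 5.41% of all tested genes fell. Summed total RNA of the 7 genes was 12127 to 22775 in WT, 5480 to 6374 in Nat1+/- and 3742 to 21960 in Nat1-/-.

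Of 12 tested transcription factors and coactivators of respiratory genes, Nrf1 rose (0.39 ± 0.13) and Gabpb1, the GABP partner subunit, fell (-0.54 ± 0.12) in RPF between Nat1-/- and Nat1+/- (log2, SE; limma adjusted p = 0.039 and 0.0085). In total RNA 3 rose, namely Yy1 (0.67 ± 0.13), Nrf1 (0.40 ± 0.12) and Esrra (0.59 ± 0.18), and 0 fell. For all tested genes the shares in this comparison were 17.6% higher and 18.6% lower in RPF, and 19.8% and 20.2% in total RNA. Against WT, 3 of the 12 rose and 0 fell in RPF of Nat1-/-, where 16.5% of all tested genes rose and 18.3% fell. In RPF of Nat1+/- the counts were also 3 and 0, where 5.35% and 5.13% of all tested genes did. Sp1 and Gabpa, the DNA-binding GABP subunit, rose in Nat1-/- (1.15 ± 0.17 and 0.97 ± 0.15) and in Nat1+/- (1.26 ± 0.17 and 0.76 ± 0.15). The third was Polrmt (0.45 ± 0.15) in Nat1-/- and Ppargc1b (1.40 ± 0.31) in Nat1+/-.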

How the data were processed

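Libraries came from the TruSeq Ribo Profile kit, per the labels. The authors deposited a signal per gene and library, which is the read count over a DESeq2 size factor, and the submitters' processing notes also name bcl2fastq 2.17, cutadapt 1.9.1, Bowtie2 2.2.8, TopHat2 2.1.0 and HTSeq 0.6.1 with the builds mm10 and GRCm38.p4. Multiplying back gave whole reads within 0.001 for 100% of values. Factors were set within each assay, which hides any change common to most genes. At 0 reads up to 3 remain possible by counting error alone.

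Groups follow the labels. In R 4.3.3, limma 3.58.1 with a trended eBayes was run on log2(value + 1) of the deposited signal, over all genes with a mean of at least 10 in the assay and 3 genotype means; fold changes of low genes are understated on this scale. TE was the interaction of assay and genotype. p-values are two-sided, Benjamini-Hochberg adjusted, with calls under 0.05. The fits were run on simulated reads drawn with no shared effect of a culture. That run does not test the TE fit against the pairing given next. RPF and total RNA of one culture deviated together (r = 0.384 to 0.821 across genes, 8 of 8 matched best), so TE is also given with a culture term. Alternatives included other filters, pseudocounts and scalings, edgeR 4.0.16 and DESeq2 1.42.0 on recovered reads, each culture left out in turn, and blocked fits.

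The members and lists were chosen with earlier results of these data known. Every member may be named except 1 that enters the counts and medians but is not reported singly here; values in each culture are given for Eif4g2, the core subunits, up to 10 called members of smallest adjusted p in RPF of Nat1-/- against Nat1+/- and up to 4 in each other comparison, or 2 of smallest p where none was called. Other lists are given by counts with up to 3 genes of smallest adjusted p, and further names were chosen after their values were seen. CCAAT, the paired NRF1 half-sites and the fit on the 3 cultures with deep total RNA libraries were added after seeing the data. Protein sequences and transcript lengths were not used here, so levels of different genes were not compared.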

Additional observations from a re-analysis of the deposited data

How the results depend on the processing

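Depth and 2 or 3 cultures per group limit these results, and most calls lay near the threshold. Counts of called members, with 1 culture left out, ranged for Nat1-/- against Nat1+/- from 2 to 16 in RPF (13 with all), 1 to 5 in total RNA (3 with all) and 0 to 1 in TE (0 with all). For Nat1-/- against WT they ranged from 1 to 11 in RPF (8 with all) and 0 to 11 in total RNA (11 with all), and for Nat1+/- against WT from 0 to 1 in both (3 with all). Equal library sums gave 6 (RPF) for Nat1-/- against Nat1+/-, 5 (RPF) and 5 (total RNA) for Nat1-/- against WT and 1 (total RNA) for Nat1+/- against WT, and the share of calls that were higher over all genes went from 47.4% to 36.2% in RPF of Nat1-/- against WT. DESeq2 on recovered reads gave 13 for RPF of Nat1-/- against WT, 5 (RPF) and 6 (total RNA) for Nat1+/- against WT and 3 for TE of Nat1-/- against Nat1+/-. With only the 2 genotypes compared the counts were 5 (RPF) and 6 (total RNA) for Nat1-/- against WT and 6 (RPF) and 5 (total RNA) for Nat1+/- against WT. The 5 cultures with shallow total RNA libraries gave 8 in RPF of Nat1-/- against Nat1+/-, and the 3 with deep ones 5 in total RNA of Nat1-/- against WT. The culture term, the block that pairs the libraries of a culture, gave 10 in TE of Nat1-/- against Nat1+/- and 0 in the others. The replicate number used as a block gave 0 in both assays for Nat1+/- against WT. Nat1-/- and Nat1+/- cultures of the same number did not deviate together (r = -0.133 to -0.0269 in RPF and -0.191 to -0.122 in total RNA, 0 of 3 matched best). The labels do not say what cultures of the same number share, and a common batch was not tested. A fit with a culture left out also has fewer samples. The causes of the changes in these counts were not tested. No call changed sign under any setting run; of 844 values of single named genes, 640 kept their side of the threshold, 199 lost a call and 5 gained one.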
